A study of Mus musculus with 7 samples.

Results

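Cells that divide switch on a shared set of genes, and 30 of them were followed here in CD4+ cells sorted from the mouse spleen. The set comprised the 6 subunits of the MCM helicase, 4 genes of DNA synthesis in S phase, 19 genes of mitosis and Mki67, which encodes the Ki-67 antigen of cycling cells. The genes were taken by symbol from the 19589 symbols of the deposited RNA-seq table, and all 30 were present. Levels were compared between 4 wild-type C57BL/6 libraries (WT1 to WT4) and 3 libraries of the genotype RT on the same strain (RT1 to RT3). RT stands for mice that lack Tet2, a dioxygenase acting on 5-methylcytosine in DNA, and that carry G17V RHOA, a mutant small GTPase known from T cell lymphoma. The series describes the 7 samples as 7 mice. The deleted part of Tet2, the promoter that drives G17V RHOA, the cells that carry it and the age of the mice are not given in the labels, and no agent is named for either group.

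A cell that enters the cycle builds cyclin D, inactivates RB and frees E2F factors, which switch on genes for origin licensing and DNA synthesis. MCM2 to MCM7 form a ring that is loaded on replication origins in G1 and unwinds DNA in S phase. Genes for mitosis are repressed in resting cells by the DREAM complex and come on in G2 through B-MYB and FOXM1, often through a promoter element named the cell cycle homology region (CHR). Most T cells in a spleen at rest are quiescent, so transcripts of these genes come largely from the minority of cells that are cycling.

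The promoters of 24 of the 30 genes were found in a RefSeq table of 27025 promoters (build GRCm38.p6, 250 bases before to 50 bases after the start of transcription). They are described here because the licensing genes and the mitosis genes, whose levels are compared below, differ in the elements they hold. The letters TTTGAA or TTCGAA of the CHR, on either strand, were in 11 of 14 mitosis promoters (78.6%), in 2 of 5 licensing promoters and in 19.4% of all promoters of that length. E2F letters (TTCCCGC in its first form, TTGGCGC in its second or TTCGCGC in its last, either strand) were in 4 of 5 licensing promoters, in 2 of 14 mitosis promoters and in 8.21% of all promoters. CCAAT, the core of an NF-Y box, was in 20 of the 24 promoters (83.3%) against 37.9% of all. A match is only a string of letters and does not show binding. The 3 sequences below stand for a licensing gene with E2F letters and no CHR (Mcm6), a licensing gene with both (Mcm7) and a mitosis gene with the CHR and no E2F letters (Ccnb2). They run 5′ to 3′ along the gene, and capitals mark every match to these motifs.
Mcm6 promoter, chr1:128359656-128359955, minus strand: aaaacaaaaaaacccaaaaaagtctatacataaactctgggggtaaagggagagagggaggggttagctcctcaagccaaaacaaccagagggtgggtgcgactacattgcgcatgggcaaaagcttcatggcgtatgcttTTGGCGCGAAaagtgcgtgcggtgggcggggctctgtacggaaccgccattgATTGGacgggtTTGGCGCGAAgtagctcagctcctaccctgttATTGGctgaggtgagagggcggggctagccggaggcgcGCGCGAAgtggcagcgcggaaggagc
Mcm7 promoter, chr5:138171834-138172133, minus strand: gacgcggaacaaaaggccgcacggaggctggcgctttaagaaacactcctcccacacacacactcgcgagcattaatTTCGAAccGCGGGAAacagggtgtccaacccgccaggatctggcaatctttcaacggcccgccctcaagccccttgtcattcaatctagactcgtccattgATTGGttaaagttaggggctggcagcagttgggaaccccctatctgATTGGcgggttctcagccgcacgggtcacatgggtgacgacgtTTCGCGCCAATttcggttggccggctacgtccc
Ccnb2 promoter, chr9:70421505-70421804, minus strand: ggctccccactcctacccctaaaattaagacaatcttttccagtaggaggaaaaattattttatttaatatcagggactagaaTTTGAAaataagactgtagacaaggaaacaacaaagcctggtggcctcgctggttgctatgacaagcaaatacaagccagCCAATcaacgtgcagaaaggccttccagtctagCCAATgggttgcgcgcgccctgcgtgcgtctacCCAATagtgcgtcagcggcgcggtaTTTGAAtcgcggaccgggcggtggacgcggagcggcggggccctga
The Mcm6 promoter held E2F letters at 3 places, with 2 overlapping matches at each of the first and second, and 2 CCAAT matches. That of Mcm7 held 1 CHR match, E2F letters at 2 places and 3 CCAAT matches, of which the last shares letters with an E2F match. That of Ccnb2 held 2 CHR matches and 3 CCAAT matches.

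The libraries were of very unequal depth. The steps between low values showed that WT1, WT2 and RT1 rested on 18566233 to 21800352 reads (the deep libraries) and WT3, WT4, RT2 and RT3 on 105763 to 121659 reads (the shallow libraries). A single read in a transcript of 2 kb was worth 0.0229 to 0.0269 RPKM (reads per kilobase of transcript and per 1000000 reads) in a deep library and 4.11 to 4.73 RPKM in a shallow one. The RPKM column of a deep library added up to 133044 to 152578 and that of a shallow one to 326187 to 366023, so levels across the sets are given here as reads per 1000000 recovered gene reads (RPM). RPM is not per length, so genes are compared with each other only in RPKM. With 3 reads as the limit, a count of 0 allowed a level of at most 0.272 to 0.338 RPM in a deep library and 26.9 to 31.1 RPM in a shallow one. In WT1 to WT4 the RPKM of Tet2 was 6.32, 4.68, 2.86 and 2.79, and in RT1 to RT3 it was 5.03, 0.803 and 0, where RT2 and RT3 had 1 and 0 reads. Gene totals do not show whether part of Tet2 is deleted, so they do not check the labels. Xist and Y-linked genes marked WT3, WT4 and RT3 as male and the other 4 mice as female, which the labels do not state. In WT the deep libraries were thus female and the shallow ones male, so library set and sex cannot be told apart there. Sex was also not balanced between the genotypes in the shallow libraries, as RT2 was female.

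The cell cycle genes did not move together between the genotypes. The 30 genes summed to 1265, 1045, 1543 and 1390 RPM in WT1 to WT4 and to 1176, 1587 and 1939 RPM in RT1 to RT3. The groups overlapped, with RT1 below 3 of the 4 wild-type libraries and RT2 and RT3 above all of them. This sum followed library set too, as every shallow library (1390 to 1939 RPM) lay above every deep one (1045 to 1265 RPM). Without Mcm6 the other 29 genes summed to 915 to 1381 RPM in the wild-type libraries and to 946, 1110 and 1436 RPM in RT1 to RT3. The 19 mitosis genes summed to 366 ± 138 RPM (SD, n = 4) in WT and to 325 ± 102 RPM (SD, n = 3) in RT. These means mix deep and shallow libraries in unequal proportions, and their SDs include the gap between the sets. In the deep libraries the sums were 314 (WT1), 201 (WT2) and 245 RPM (RT1). In the shallow ones they were 514 (WT3), 436 (WT4), 290 (RT2) and 440 RPM (RT3). In RNA from many cells, fewer cycling cells and less RNA per cycling cell cannot be told apart.

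**Figure D1:**
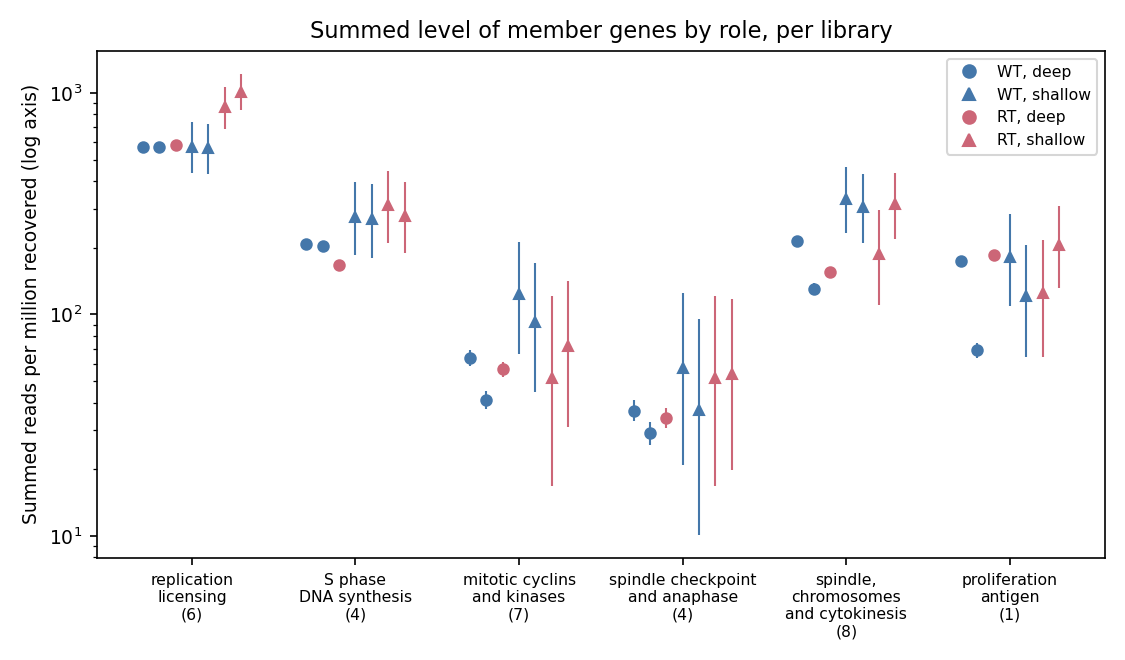
Summed level of the genes of each role in each library, in reads per 1000000 recovered reads on a log axis; circles are deep libraries, triangles shallow ones, blue WT and red RT, numbers in brackets are genes per role, and bars are exact 95% Poisson intervals, which cover counting error only. The licensing sum lay at 565 to 571 RPM in all 4 WT libraries and at 580, 861 and 1014 RPM in the RT libraries, while in every other role WT and RT overlapped. The licensing interval of RT1 (566 to 594 RPM) overlapped those of the WT libraries. Without Mcm6 the other 5 licensing genes overlapped too, at 371 to 441 RPM in WT and at 349, 384 and 512 RPM in RT1 to RT3.

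The test of genotype on log2(RPKM + 1) with limma kept 27 of the 30 genes, those at 1 RPKM or more in at least 3 libraries, and left out Aurka, Bub1 and Cenpf. It called 0 of the 27, with limma adjusted p-values of 0.55 to 0.999, where 0.0521% of the 9605 genes tested were called (0.0416% higher and 0.0104% lower in RT). The log2 fold changes of RT over WT ran from -1.47 (Kif20a) to 1.35 (Mcm6). Adding 1 before taking logs makes the fold changes of low genes smaller than they are in RPKM. Their median was 0.16 against 0.00 for all genes tested, and 18 of the 27 were above 0. At an unadjusted p under 0.05 stood 1 of the 27, Mcm6, and 8.69% of all genes tested. This fit has no term for library set. With such a term the median of the 27 was -0.04 against -0.03 for all genes tested.

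The reads behind the RPKM values were also recovered and fitted with limma voom, in a model of genotype and of library set (deep or shallow). Of the 30 genes, 17 had at least 10 reads in the shallow libraries together and were tested, among them only 6 of the 19 mitosis genes. This fit called Mcm6 higher and Kif11 lower in RT, 1 gene in each direction, where 9.46% of the 5878 genes tested were higher and 8.2% lower (17.7% in all). At an unadjusted p under 0.05 stood 6 of the 17, 3 in each direction, and 31.5% of all genes tested. The median log2 fold change of the 17 was -0.06 against -0.03 for all genes tested. When every gene with 10 or more reads over all libraries was kept, all 30 genes entered, and limma voom called 0 of them against 5.84% of 13181 genes higher and 3.41% lower (9.26% in all). At an unadjusted p under 0.05 stood 2 of the 30 higher (Mcm6 and Tk1) and 3 lower (Pcna, Plk1 and Kif11), while 30.9% of all genes tested passed that threshold in either direction. Their median log2 fold change was 0.17 against 0.09 for all genes, 16 of the 30 were above 0, and the median standard error was 0.33.

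**Figure D2:**
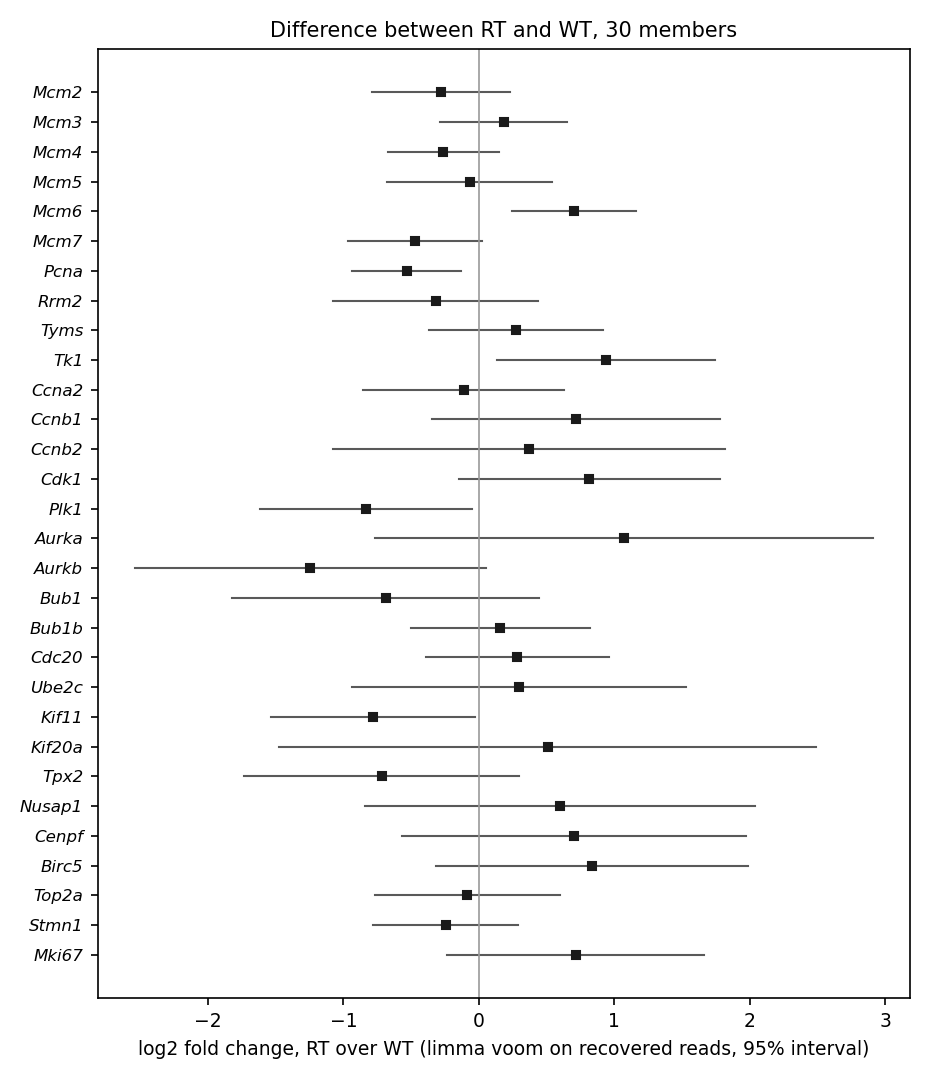
Log2 fold change of RT over WT for each of the 30 genes from limma voom on recovered reads with a library set term, keeping genes with 10 or more reads over all libraries; squares are estimates and lines 95% intervals. Intervals of Mcm6 and Tk1 lie above 0 and those of Pcna, Plk1 and Kif11 below it, none with an adjusted p under 0.05, and the lines are longest for low genes such as Aurka and Kif20a.

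Mcm6, the helicase subunit encoded at chr1:128331590-128359664 (minus strand, mm10), stood apart from the other genes of replication licensing. It was at 18.4, 14.4, 30.6 and 37.0 RPKM in WT1 to WT4 and at 25.0, 93.2 and 98.7 RPKM in RT1 to RT3. In RPM these were 179, 129, 162 and 195 in the wild-type libraries and 231, 477 and 503 in the RT ones. Every RT library lay above every WT library in RPM, which held for 1 of the 17 genes with enough reads and for 5.7% of the 5878 genes. No gene of the 17 lay lower in every RT library, where 5.61% of all genes did. The gap was small in the deep libraries, where RT1 was 1.49-fold above the mean of WT1 and WT2, which themselves differed 1.38-fold. In the shallow libraries it was 2.75-fold, from 102 reads in both RT libraries together and 38 in both WT libraries. Counting intervals (exact Poisson, 95%) ran from 349 to 636 RPM in RT2 and from 120 to 297 RPM in WT4, the highest wild-type library.

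The limma fit on log2(RPKM + 1) gave Mcm6 a log2 fold change of 1.35 ± 0.58 (SE), with an adjusted p of 0.55. On recovered reads it was 0.75 ± 0.20 (SE, 95% interval 0.28 to 1.22), with a limma voom adjusted p of 0.0396. Leaving out 1 library in turn gave 0.58 to 1.44 with adjusted p-values of 0.00549 to 0.434 by limma voom. The call held without WT1 and was lost without WT2, WT3, WT4, RT1, RT2 or RT3, each time with Mcm6 higher in RT. The deep libraries alone gave 0.61 ± 0.25 (limma voom adjusted p = 0.417) and the shallow ones alone 1.44 ± 0.33 (limma voom adjusted p = 0.00303). RT2 and RT3, where Mcm6 was highest, also had the highest sums of CD4 T cell markers, at 6948 and 6517 RPM against 3081 to 4038 RPM elsewhere. The marker Cd5 was not highest there, at 249 (RT2) and 485 RPM (RT3) against 482 to 619 RPM in WT. The part of cell makeup in the Mcm6 difference was not tested.

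The other 5 subunits of the ring did not share that difference. Mcm2, Mcm3, Mcm4, Mcm5 and Mcm7 summed to 389, 441, 410 and 371 RPM in WT1 to WT4 and to 349, 384 and 512 RPM in RT1 to RT3, so the groups overlapped. Their limma voom log2 fold changes on recovered reads were -0.31, 0.21, -0.29, -0.06 and -0.49, with adjusted p-values of 0.124 to 0.874. Mcm7, whose product forms the ring beside MCM3 and MCM4, was at 8.40, 12.0, 19.0 and 16.7 RPKM in WT1 to WT4 and at 7.05, 19.2 and 20.4 RPKM in RT1 to RT3. It was lower in RT1 than in both deep wild-type libraries, while the shallow RT libraries were level with the shallow WT ones. Without WT1 the Mcm7 difference on reads was -0.64 with a limma voom adjusted p of 0.0493, the only setting that called it. Mcm7 overlaps Ap4m1, Cops6 and the Mir106b, Mir93 and Mir25 cluster in the annotation, and since strand use in counting is not given, some of its reads may belong to them.

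The ratio of Mcm6 to the rest of its ring puts this on a per-length scale. Mcm6 RPKM over the median RPKM of the other 5 subunits was 2.19, 1.20, 1.63 and 2.25 in WT1 to WT4. In RT1, RT2 and RT3 it was 2.53, 4.85 and 4.36. Every RT ratio lay above every WT ratio, narrowly for RT1. The ratio was computed after the Mcm6 values had been seen and has no test.

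**Figure D3:**
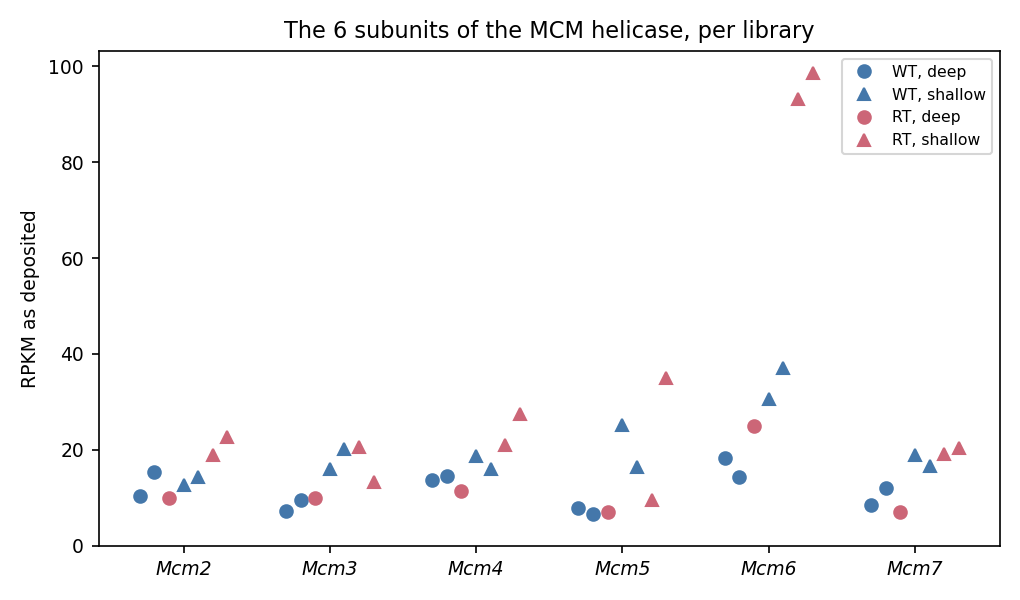
RPKM as deposited of the 6 MCM helicase subunits in each library; circles are deep libraries, triangles shallow ones, blue WT and red RT. Mcm6 in RT2 and RT3 stands at 93.2 and 98.7 RPKM, above the 9.47 to 35.0 RPKM of the other 5 subunits in those libraries, while in RT1 it is at 25.0 RPKM.

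Genes of DNA synthesis showed no common direction, and Pcna lay on opposite sides of WT in the deep and the shallow RT libraries. Pcna, the sliding clamp of the replication fork, was at 158, 159, 152 and 176 RPM in WT1 to WT4. In RT1 it was lower, at 103 RPM, and in RT2 and RT3 higher, at 207 and 189 RPM. The limma voom log2 fold change was -0.51 ± 0.17 (SE), with an adjusted p of 0.0732. Without RT2 it became -0.58 with a limma voom adjusted p of 0.0396, and in the shallow libraries alone it was 0.26 ± 0.38. Tk1, the thymidine kinase of the salvage pathway, was at 21.7 and 11.9 RPM in WT1 and WT2 and at 33.7 RPM in RT1. Its shallow values, 47.6 (WT3), 27.8 (WT4), 41.5 (RT2) and 35.9 RPM (RT3), rested on 3 to 5 reads each and overlapped. The limma voom log2 fold change of Tk1 was 1.03 ± 0.31 (SE) with an adjusted p of 0.0538, and 1.39 with an adjusted p of 0.00597 without WT1. Tk1 overlaps Afmid on the other strand.

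Rrm2, the small subunit of ribonucleotide reductase, and Tyms, the thymidylate synthase, were low and showed no difference beyond their error. Rrm2 stood at 12.6 to 57.1 RPM in WT and 13.4 to 35.9 RPM in RT, and Tyms at 12.1 to 27.8 RPM in WT and 17.1 to 31.1 RPM in RT. Their 95% intervals on reads were -0.98 to 0.36 for Rrm2 and -0.21 to 0.80 for Tyms (limma voom, log2). Changes inside these intervals could not be told from none at this depth.

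Mitotic cyclins and kinases were rare transcripts. The 7 genes together reached 63.9, 41.2, 124 and 92.7 RPM in WT1 to WT4 and 56.6, 51.8 and 71.8 RPM in RT1 to RT3. None of the 7 was called in any fit with all 7 libraries. Cdk1, the kinase that starts mitosis, was at 4.28 and 6.94 RPM in WT1 and WT2 and at 10.7 RPM in RT1, resting on 38, 72 and 118 reads. Its shallow values were 38.1 (WT3), 9.27 (WT4), 10.4 (RT2) and 35.9 RPM (RT3), each from 1 to 4 reads. The limma voom log2 fold change was 0.89 ± 0.33 (SE) with an adjusted p of 0.104, and 1.18 with an adjusted p of 0.0373 without WT2.

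Partners of Cdk1 did not follow a common direction. Ccna2, the cyclin of S phase and G2, was at 8.22, 8.29 and 8.78 RPM in WT1, WT2 and RT1, with 73 to 97 reads each. In the shallow libraries it was higher in WT (38.1 and 46.3 RPM, 9 reads in all) than in RT (20.7 and 18.0 RPM, 4 reads in all). The mitotic cyclins Ccnb1 and Ccnb2 were near their WT1 values in RT1 (16.1 against 16.0 RPM, and 7.15 against 8.56 RPM), and WT2 was lower, at 6.27 and 2.89 RPM. Plk1, a kinase of mitotic entry and spindle assembly, was at 11.3 and 10.6 RPM in WT1 and WT2 and 6.25 RPM in RT1. With all 30 genes kept its limma voom log2 fold change was -0.83 ± 0.34 (SE), with an adjusted p of 0.144.

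The Aurora kinases lay on opposite sides of 0 in the deep libraries. Aurka, which acts at the spindle poles, was at 4.06, 0.868 and 4.62 RPM in WT1, WT2 and RT1. Aurkb, the kinase of the chromosomal passenger complex, was at 11.5, 5.30 and 2.99 RPM in the same libraries. Neither difference passed the test, with limma voom adjusted p-values of 0.405 and 0.175 over all libraries. In the shallow libraries Aurka had 1 read in WT3 and 0 in the other 3, and Aurkb had 2 reads in WT4, 1 in RT3 and 0 in WT3 and RT2.

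Genes of the spindle checkpoint and of anaphase had similar sums in the deep libraries, while Bub1 and Ube2c varied between them. The sums of the 4 genes were 36.7, 29.0 and 34.1 RPM in WT1, WT2 and RT1 and 37.1 to 57.1 RPM in the shallow libraries. Bub1b, a checkpoint kinase-like protein, was at 14.8, 15.4 and 17.6 RPM in WT1, WT2 and RT1. Cdc20, which activates the anaphase-promoting complex, was at 9.46, 8.01 and 10.5 RPM in the same 3 libraries. The ubiquitin-conjugating enzyme Ube2c stood at 1.16 to 2.93 RPM in the deep libraries and at 18.5 to 38.1 RPM in the shallow ones, a wider gap than that between genotypes in either set. Bub1 was at 9.57 and 4.44 RPM in WT1 and WT2 and at 3.62 RPM in RT1. With all 30 genes kept, limma voom gave these 4 genes log2 fold changes of -0.69 (Bub1) to 0.30 (Ube2c) and adjusted p-values of 0.384 to 0.737. Cdc20 overlaps Elovl1, and Ube2c overlaps Tnnc2, each on the other strand.

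Among genes of the spindle and chromosomes, Kif11 passed the test on reads. Kif11, the plus-end motor that pushes the spindle poles apart (chr19:37376403-37421859, mm10), was at 30.5 and 22.7 RPM in WT1 and WT2 and at 14.0 RPM in RT1. The shallow values were 28.6 (WT3), 18.5 (WT4), 10.4 (RT2) and 53.9 RPM (RT3), from 1 to 6 reads each. RT1 was lower than both deep wild-type libraries, and RT3 was the highest of all 7. The log2 fold change was -0.85 ± 0.25 (SE) with a limma voom adjusted p of 0.0492. Leaving out 1 library in turn gave -1.04 to 0.16 with limma voom adjusted p-values of 0.0216 to 0.985. The call held without WT2 and was lost without WT1, WT3, WT4, RT1, RT2 or RT3, and without RT1 the direction turned. In the limma fit on log2(RPKM + 1) the log2 fold change was -0.02 ± 0.60, with an adjusted p of 0.993.

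For Top2a and Stmn1, the genes of this role with the most reads, no difference between the genotypes beyond the error was found. Top2a, the topoisomerase that untangles replicated DNA, was at 93.5, 53.4, 152 and 139 RPM in WT1 to WT4 and at 68.0, 93.3 and 126 RPM in RT1 to RT3. The limma voom log2 fold change was -0.08 ± 0.28 (SE, 95% interval -0.72 to 0.55), with an adjusted p of 0.864. Stmn1, which destabilises microtubules, was at 20.9 to 26.4 RPM in the deep libraries and 46.3 to 76.2 RPM in the shallow ones, with an interval of -0.69 to 0.12. Kif20a, a motor of cytokinesis, had the lowest fold change in the RPKM fit (-1.47 ± 0.72, limma adjusted p = 0.618). That value came from 1 and 2 reads in WT3 and WT4 against 0 in RT2 and RT3, while in the deep libraries RT1 (5.98 RPM) lay between WT1 (7.10 RPM) and WT2 (1.64 RPM). Tpx2, which targets Aurora A to the spindle, was at 26.8, 14.3 and 11.9 RPM in WT1, WT2 and RT1. Birc5, which encodes survivin, was at 1.58, 3.28 and 5.07 RPM, and the spindle protein Nusap1 at 11.9, 4.44 and 13.1 RPM in the same libraries. The kinetochore protein Cenpf was at 15.5, 5.50 and 15.6 RPM there, RT1 level with WT1 and above WT2. With all 30 genes kept, limma voom gave these 8 genes adjusted p-values of 0.153 to 0.869.

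Mki67 overlapped between the genotypes. It was at 175, 68.8, 181 and 120 RPM in WT1 to WT4 and at 184, 124 and 206 RPM in RT1 to RT3. The lowest library was WT2 and the highest RT3, and RT1 exceeded WT1 by less than WT1 exceeded WT2. The limma voom log2 fold change was 0.70 ± 0.41 (SE, 95% interval -0.24 to 1.63), with an adjusted p of 0.281. Without WT1 it was 1.17 with a limma voom adjusted p of 0.0172, the only setting that called it.

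The spread between the 2 deep wild-type mice was as wide as the gap to RT1. Of the 19 mitosis genes, 15 were higher in WT1 than in WT2, with a median log2 ratio of 0.91 against 0.05 over all genes. Over the same 19 genes the median log2 ratio of RT1 to the mean of WT1 and WT2 was 0.26. These ratios ran from -1.49 (Aurkb) to 1.06 (Birc5), so their median does not measure the size of the gap. For 16 of the 30 genes the difference between WT1 and WT2 exceeded that between RT1 and their mean. This share was not computed over all genes. A difference between 2 single libraries also varies more than that of 1 library from a mean of 2. RT1 was above both wild-type libraries in 14 of the 30 genes, where 41.8% of all genes were, below both in 10, where 31.4% were, and between them in 6, where 26.9% were. With limma voom on the deep libraries alone, 0 of the 30 and 0 of 13134 genes were called, with 1 of the 30 (Pcna) and 1763 of all genes at an unadjusted p under 0.05. That fit takes RT1, the lone RT library, to vary as the wild-type ones do.

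**Figure D4:**
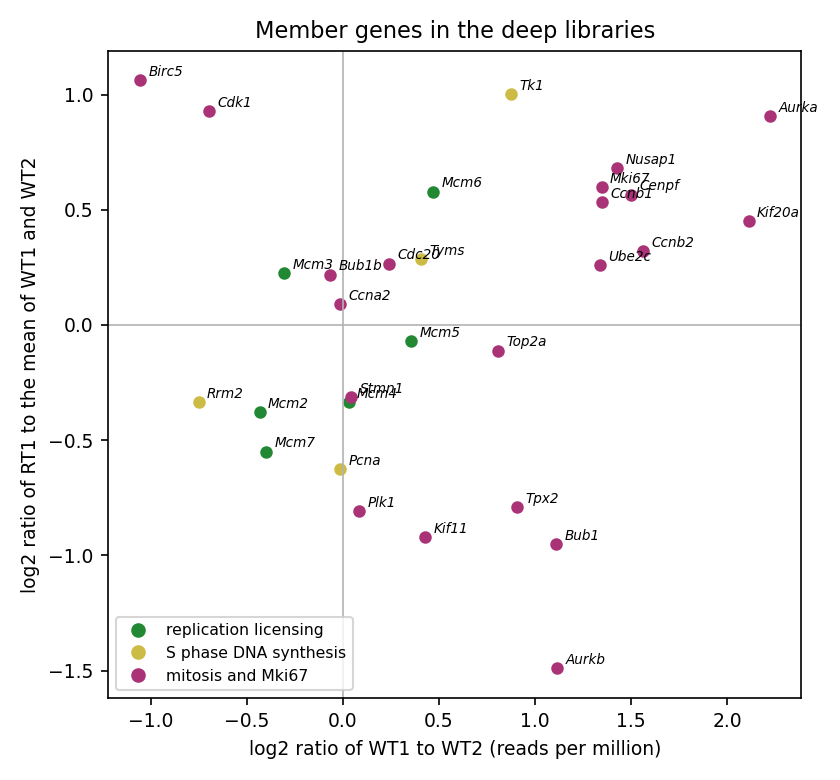
The 30 genes in the 3 deep libraries: log2 ratio of WT1 to WT2 on the horizontal axis and of RT1 to the mean of WT1 and WT2 on the vertical axis, both from RPM; colours mark the role. Most mitosis genes lie right of 0, as 15 of 19 were higher in WT1 than in WT2, and they spread to both sides of 0 on the vertical axis.

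The deep and shallow comparisons pointed the same way for some genes and not for others. Of the 17 genes with enough reads, 9 had log2 fold changes of opposite sign in the deep and the shallow fits. The share over all genes was not computed, so this count is not read as particular to these genes. In the shallow libraries both RT libraries lay above both WT libraries for Mcm2, Mcm4, Mcm6 and Pcna, 4 of 17, where 22.8% of all genes did. Both lay below for Rrm2, Ccna2 and Top2a, 3 of 17, where 27.9% of all genes did. Of these genes only Mcm6 lay on the same side in the deep libraries: Mcm2, Mcm4 and Pcna were lower in RT1 than in WT1 and WT2, and Rrm2, Ccna2 and Top2a were not lower than both. The limma voom fit of the shallow libraries called Mcm6 alone among the 17, against 2.94% of genes higher and 3.88% lower (6.82% in all).

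The wider cell cycle machinery was read through 8 further gene lists, whose members were chosen with earlier results of these data known. Their counts on recovered reads stand beside 9.46% higher and 8.2% lower among all 5878 genes tested. In the limma fit on log2(RPKM + 1) no member of any list was called. On recovered reads the G1 list, which holds the D-type cyclins and their kinases, had 4 of 7 tested genes lower in RT (Ccnd1, Ccnd2, Ccnd3 and Myc) and 1 higher (Cdk6), with a median log2 fold change of -0.63. With the wider gene filter (10 or more reads over all libraries) 2 of 10 were lower, Ccnd2 and Myc, and Cdk6 higher, against 3.41% and 5.84% of all genes. Ccnd2, cyclin D2, was at 844, 899, 343 and 334 RPM in WT1 to WT4 and at 450, 249 and 242 RPM in RT1 to RT3. RT was lower within each set, and the limma voom log2 fold change was -0.87 ± 0.13 (SE) with an adjusted p of 0.00383. Myc, a transcription factor of growth and cycle entry, was at 70.1, 102, 85.7 and 55.6 RPM in WT1 to WT4 and at 27.8, 41.5 and 44.9 RPM in RT1 to RT3. Every RT library lay below every WT library, and the limma voom log2 fold change of Myc was -1.56 ± 0.24 (SE) with an adjusted p of 0.00482. Myc and the other genes named from these lists were picked by their p in this fit. A lack of overlap in the same values is therefore no separate support for them. Over the 5878 genes, 5.61% lay lower in every RT library than in every WT library and 5.7% higher.

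In the lists of inhibitors and of the RB pathway the calls depended on the gene filter. Of 2 tested CDK inhibitors, Cdkn2d (p19INK4d) was lower (-0.67 ± 0.19 SE, limma voom adjusted p = 0.0481). Cdkn1b (p27), which holds cells in G1, stood at 0.06 ± 0.15 with a limma voom adjusted p of 0.809. With the wider gene filter, limma voom called 2 of 8 inhibitors higher (Cdkn2c and Cdkn3) and 0 lower, against 5.84% and 3.41% of all genes. The exon length of Cdkn3 could not be settled, so its reads are uncertain. The median log2 fold change of the 8 was 1.03 against 0.09 for all genes. Of 6 tested genes of the RB and E2F family, Rb1 was higher (1.05 ± 0.30 SE, limma voom adjusted p = 0.045), with 0 reads in RT2, and E2f4 stood at 0.27 ± 0.15. With the wider gene filter limma voom called 0 of 13 genes of that family. Replication fork and origin genes had 2 of 16 higher (Pold3 and Lig1) and 1 lower (Pold1), with a median of -0.19. These shares are close to those of all genes, and with the wider gene filter 0 of 37 were higher and 1 lower, Pold1, by limma voom. Pold1, the catalytic subunit of DNA polymerase delta, was at 70.6, 75.2, 57.1 and 55.6 RPM in WT1 to WT4 and at 41.4, 10.4 and 18.0 RPM in RT1 to RT3, below WT in every RT library. Its limma voom log2 fold change was -0.85 ± 0.17 (SE), and that of Pold3, an accessory subunit of the same polymerase, was 0.67 ± 0.18 (SE). The nucleotide and chromatin copying list had 1 of 7 genes higher, the salvage kinase Dck (0.61 ± 0.18 SE, limma voom adjusted p = 0.0495). The maintenance DNA methyltransferase Dnmt1 stood at -0.49 ± 0.16 in that list, with a limma voom adjusted p of 0.0701. With the wider gene filter 0 of 12 genes of that list were higher and 1 lower, Chaf1b, by limma voom. Of 2 tested genes of the DNA damage checkpoint, Atm and Atr, 0 were called by limma voom or by limma, and their log2 fold changes on reads were -0.22 ± 0.26 and 0.08 ± 0.19.

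The last lists held other mitosis genes and genes of the resting state. Of 12 tested mitosis genes outside the 30, Cdc25b and H2afz were higher and 0 lower, with a median of 0.18. With the wider gene filter, limma voom called 2 of 46 higher (Cdc25b and Cks2) and 0 lower, against 5.84% and 3.41% of all genes. Cdc25b, the phosphatase that activates CDK1 at mitotic entry, was at 153, 81.7, 114 and 102 RPM in WT1 to WT4 and at 344, 394 and 332 RPM in RT1 to RT3. All RT libraries lay above all WT libraries, deep and shallow alike, and the limma voom log2 fold change was 1.64 ± 0.27 (SE) with an adjusted p of 0.00585. H2afz, a histone variant, stood at 0.69 ± 0.18 (SE) with a limma voom adjusted p of 0.0319. Of 7 tested genes that mark quiescent T cells, 3 were lower (Klf2, Foxo1 and Foxp1) and 0 higher by limma voom, beside 8.2% lower and 9.46% higher of all genes. Foxo1 was at 401, 532, 276 and 176 RPM in WT1 to WT4 and at 149, 62.2 and 108 RPM in RT1 to RT3, below WT in every RT library. Its limma voom log2 fold change was -1.62 ± 0.20 (SE), and that of Foxp1 was -1.01 ± 0.19 (SE). Klf2 stood at -1.35 ± 0.26 (SE), with the groups overlapping, as RT2 and RT3 (270 and 269 RPM) lay above WT4 (250 RPM).

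Leaving out RT1 ended every one of these calls among the 5878 genes with enough reads in the shallow libraries. Limma voom then called 0 of them in either direction, with 497 at an unadjusted p under 0.05. With RT1 left out, only shallow libraries bear on genotype in that model, while the spread between WT1 and WT2 still enters its error. The fit of shallow libraries, which lacks RT1 as well, called 173 of the same 5878 genes higher and 228 lower. Mcm6 stood at a log2 fold change of 1.44 in each fit, with limma voom adjusted p-values of 0.434 and 0.00303. The loss of calls therefore does not show that they rest on the values of RT1. Calls made only with the wider gene filter were not refitted without a library. The calls of Ccnd2, Myc, Pold1, Cdc25b, Foxo1, Foxp1 and Klf2 held when each other library was left out in turn. Those of Ccnd1, Ccnd3, Cdk6, Lig1, Cdkn2d, Rb1, Pold3, Dck and H2afz were also lost without at least 1 other library. Without RT3, Ccnd1 stood at -1.54 and Cdk6 at 1.65, without WT4 Ccnd3 stood at -0.67, and without WT2 Lig1 stood at 0.59. Without WT3, Cdkn2d stood at -0.67, Rb1 at 1.07, Dck at 0.58 and H2afz at 0.59, and without WT4 Pold3 stood at 0.66. Without RT1 the log2 fold changes were 0.24 for Cdkn2d, -0.59 for Rb1 and 0.06 for Ccnd3, on the other side of 0. They were smaller for Ccnd2 (-0.45), Myc (-0.62), Cdk6 (0.85), Foxo1 (-1.35), Klf2 (-0.24) and Pold3 (0.03). They were larger for Cdc25b (1.70), Foxp1 (-2.21), Pold1 (-1.70), Lig1 (1.84), Dck (1.5) and H2afz (1.03). Ccnd1 was at 0 in RT2 and RT3, so its value without RT1 is not given as a fold.

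Markers of other cells differed between the libraries. All 6 CD4 T cell markers were above 0 in every library, and their sum was 3081 to 4038 RPM except in RT2 and RT3. Among the 6 only Cd5 was called by limma voom on recovered reads, as lower in RT, where 8.2% of all genes were. The CD8 T cell markers summed to at most 27.8 RPM. B cell markers summed to 156 to 367 RPM in 5 libraries and to 1362 and 1510 RPM in WT3 and WT4. Plasma cell markers, which were led by Jchain, summed to 128 to 535 RPM in the same 5 and to 1562 and 1751 RPM in WT3 and WT4. The erythroid sum, most of it globin, was 126 to 404 RPM in those 5 and 1762 and 1733 RPM in WT3 and WT4. Klf1, a defining factor of erythroid precursors, was at 0 in every library. Myeloid markers summed to 373 to 1248 RPM in 6 libraries and to 2426 RPM in RT1, where Csf1r alone stood at 1279 RPM, and Elane was at 0 in all 7. NK cell markers summed to at most 58.3 RPM, with Klre1 at 0 in every library. Germinal centre B cell markers summed to 38.1 to 148 RPM. Limma voom on recovered reads also called markers outside the CD4 list, all higher in RT, where 9.46% of all genes were. They were 2 of 4 tested myeloid markers (Cst3 and Adgre1) and 1 of 2 germinal centre markers (S1pr2). Adgre1 was at 227 RPM in RT1 but at 10.4 RPM in RT2 and 0 in RT3. With the wider gene filter Cd14, Csf1r, S100a9 and S1pr2 were called higher and Cd5 and Prf1 lower, against 5.84% and 3.41% of all genes.

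WT3 and WT4, with the highest B, plasma and erythroid sums, also had the highest sums of the 19 mitosis genes (514 and 436 RPM) apart from RT3 (440 RPM). WT1 and WT2, which differed most in mitosis genes among the deep libraries (314 and 201 RPM), had B cell sums of 250 and 196 RPM and myeloid sums of 827 and 547 RPM. RT1, with the highest myeloid sum, stood at 245 RPM for the mitosis genes. The part of these cell types in the cell cycle values was not tested.

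**Figure D5:**
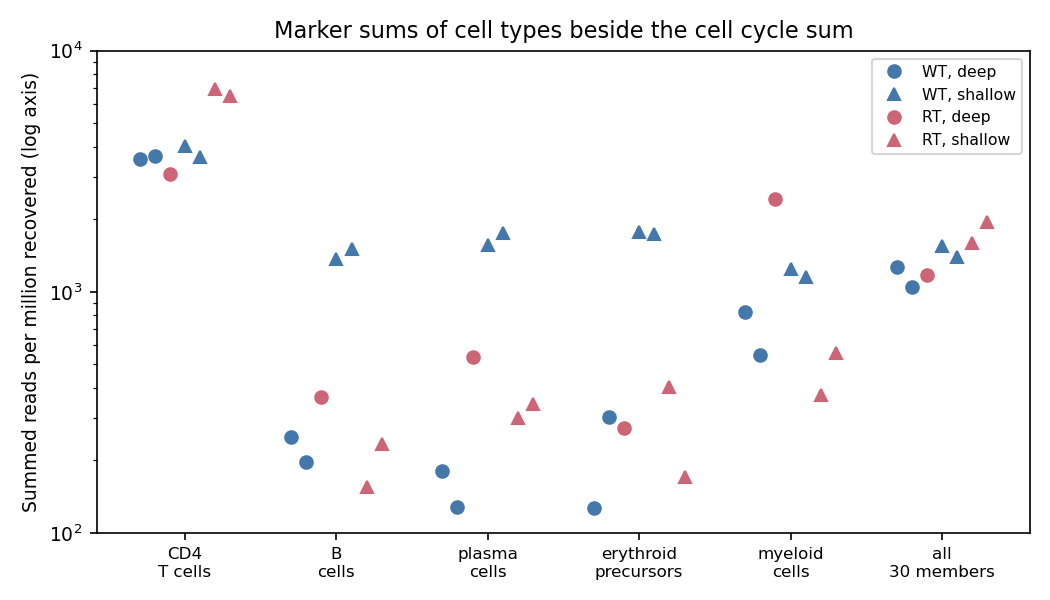
Summed marker levels of 5 cell types beside the sum of the 30 cell cycle genes in each library, in reads per 1000000 recovered reads on a log axis; circles are deep libraries, triangles shallow ones, blue WT and red RT. Summed CD4 T cell markers are highest in RT2 and RT3, B, plasma and erythroid markers in WT3 and WT4 and myeloid markers in RT1. The cell cycle sum stays between 1045 and 1939 RPM.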

How the data were processed

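CD4+ spleen cells were sorted by flow cytometry and libraries were made with an Illumina TruSeq v2 kit, per the labels' protocols. The authors deposited RPKM values for 7 libraries, with mm10 as the genome build per the submitters' processing notes. No aligner, counter or strand setting is named in the labels or notes (not given in the sources used here). Members and lists were chosen with earlier results of these data known.

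The test was limma 3.58.1 (R 4.3.3) on log2(RPKM + 1), with genes at 1 RPKM or more in 3 of 7 libraries, genotype as the only term and Benjamini-Hochberg adjustment over all genes (threshold 0.05, two-sided). Whole reads were recovered from the steps of the deposited RPKM values with GENCODE M21 exon lengths: 78.9% to 83.9% of values under 100 reads were whole within 0.01 reads, 25 of the 30 members fitted the annotated length and 5 (Mcm2, Mcm3, Kif11, Kif20a and Cenpf) another single length. Of the total behind a library's values, 47.8% to 51.8% lay in genes where deep and 88.3% to 91.6% where shallow. They were tested with limma voom with a library set term, over genes with 10 or more reads in the shallow libraries. Voom weights deep libraries more, so RT1, WT1 and WT2 count most in it. Intervals and limits cover counting error only. Named genes are all 30 members, the 2 of smallest voom p in each further list, and the members called where a list had 5 or fewer. WT3 and WT4 differed little beyond counting noise (chi-square per degree of freedom 1.22, against 3.11 for RT2 and RT3). They were kept as the 2 samples the labels give, which this value does not show to be independent. The scripts were tested on simulated reads with known changes. Those reads had the same added noise in every library and no difference between the sets beyond depth. That test checks the code and does not show how far calls hold at the spread of these libraries.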

Additional observations from a re-analysis of the deposited data

How the results depend on the processing

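No cell cycle gene was called under any setting of the RPKM test, leave-one-out included (0 to 0 in each direction). Over all genes that test called 4 higher and 1 lower in RT, and 0 and 0 with a pseudocount of 0.1, without a filter, with a minimum of 5 RPKM, with WT3 and WT4 averaged and with the replicate block. A pseudocount of 5 gave 5 and 0, rescaling to 1000000 per library 7 and 5 (median of all genes -0.22, of the members -0.07), a library set term 21 and 5, deep libraries alone 289 and 126, shallow ones alone 13 and 82, and leave-one-out 0 to 10 and 0 to 5. Recovered reads gave 556 and 482 over all genes, deep alone 0 and 0, shallow alone 173 and 228, TMM scaling 514 and 419, all genes with 10 reads in any libraries 770 and 450, and leave-one-out 0 to 746 and 0 to 633 (746 and 512 without WT1, 655 and 633 without WT2, 404 and 338 without WT3, 410 and 337 without WT4, 0 and 0 without RT1, 543 and 496 without RT2, 335 and 305 without RT3). Cell cycle genes called on reads were 1 higher and 1 lower, also with TMM scaling, 1 and 0 in the shallow libraries, 0 and 0 in the deep ones and with the wider gene filter, and 0 to 3 higher and 0 to 1 lower in leave-one-out. Where a call was involved or both values exceeded their SE, directions turned for Mcm7 (-0.64 on reads without WT1) and Pcna (-0.58 on reads without RT2) against the RPKM fit, and on reads for Mcm2 (0.55 in the shallow libraries) and Kif11 (0.16 without RT1, 0.24 in the shallow libraries). Smaller values changed sign too, as on reads in the shallow libraries for Mcm4 (0.42), Pcna (0.26), Mcm3 (-0.16) and Stmn1 (0.06). In the deep and shallow fits 9 of 17 genes had opposite signs, a share not computed over all genes. The cause was not tested. Replicate numbers gave correlations of 0.432, -0.179 and 0.184 between same-numbered deviations, so they do not pair the samples, and libraries 1 and 3 but not 2 matched best with their own number. Depth limits the mitosis genes most, as 13 of the 30 members had under 10 reads in all shallow libraries together.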

Other observations

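Cdkn3, a phosphatase that acts on CDK2 and is high in dividing cells, was listed at 0 in all 4 wild-type libraries and at 0.890, 3.99 and 3.47 RPKM in RT1, RT2 and RT3. This pattern held for 9 of the 19589 genes in the table, and the opposite one, above 0 in every WT library and at 0 in every RT library, for 7. Cdkn3 was singled out after its values had been seen. Its exon length could not be settled, so its reads in RT2 and RT3 are few and uncertain. On those reads limma voom with the wider gene filter called it higher in RT.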
